A study of Mus musculus with 12 samples.

Results

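The immediate early genes described here are the EGR family (Egr1, Egr2, Egr3 and Egr4), the NR4A family (Nr4a1, Nr4a2 and Nr4a3), Arc, Npas4 and Ier2. They were chosen by name, and all 10 were found among the 47729 genes of the deposited table. Bilateral amygdalae of 12 age-matched female C57/BL6 mice, an inbred strain, were dissected and 1 stranded mRNA library was sequenced from each, with no drug treatment or altered allele. Every mouse had been through behavior tests in successive weeks, first an elevated plus maze (EPM), then a light/dark box (LD) and last a social interaction test with 3 chambers (SIT), and the interval between the last test and rapid decapitation is not given in the sources used here. The labels place 3 mice in the less anxious group (mice 3, 7 and 12), 4 in the anxious group (mice 1, 4, 8 and 11) and 4 in the more anxious group (mice 2, 6, 9 and 10). Mouse 5, which the authors removed as an outlier in a PCA, has no group and is left out below except where it is named. The authors formed these groups as tertiles of the second principal component (PC2) of the same expression data, so a group difference in a gene is no independent test. The behavior measures were recorded apart from the RNA, but the study picked this component for its relation to the EPM and LD measures, so a slope on those measures and a group difference are not separate evidence.

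Immediate early genes are transcribed within minutes of a strong stimulus, without need of new protein synthesis, and their short-lived mRNA is read as a trace of recent neuronal activity. In neurons, calcium entry and MAP kinase signalling activate CREB and SRF with its ternary complex factors at their promoters. In the amygdala these genes respond to novelty, handling, fear and social contact. The EGR genes encode zinc-finger transcription factors, and the NR4A genes encode nuclear receptors that act without a known endogenous ligand. Npas4 encodes a basic helix-loop-helix PAS factor that follows calcium entry in neurons and shapes inhibitory synapses. Arc encodes a synaptic protein that drives endocytosis of AMPA receptors, and Ier2 encodes a small nuclear protein.

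The RefSeq promoter table (GRCm38.p6) held an entry for Egr2, Egr4, Nr4a1, Nr4a2, Nr4a3 and Npas4, with 10 start sites in all. Egr1, Egr3, Arc and Ier2 had none. The 250 bases before each start site were searched on both strands for the half-site of the cyclic AMP response element, TGACG, which CREB binds, and for the CArG box, which SRF binds. All 6 genes had a TGACG in at least 1 window, whereas 19.8% of the 27025 genes in the table did. Egr2 has 5 of the 10 windows, and 3 of these overlap and hold the same pair of half-sites. With overlapping windows counted once, a TGACG was in 6 of 8 stretches, and 17.8% of all 32851 single windows held one. The full element, in which TGACG overlaps its reverse complement CGTCA by the central bases, was in 0 of these genes and in 1.55% of all windows. A CArG box was found for Egr2 and for none of the other 5, against 1.47% of all windows. Nr4a1, Nr4a2 and Nr4a3 each had 4 half-sites in a window, and Egr4, Egr2 and Npas4 had 2. These windows are printed 5′ to 3′ on the strand of the gene, with half-sites and the CArG box in capitals, because they show the letters that genes of both families share. Bases that the annotation places in an exon were left out for Nr4a3, and of Npas4, whose whole window lies in an exon of a longer transcript, only the 30 bases with its half-sites are shown.
Nr4a1, chr15:101266596-101266845, plus strand: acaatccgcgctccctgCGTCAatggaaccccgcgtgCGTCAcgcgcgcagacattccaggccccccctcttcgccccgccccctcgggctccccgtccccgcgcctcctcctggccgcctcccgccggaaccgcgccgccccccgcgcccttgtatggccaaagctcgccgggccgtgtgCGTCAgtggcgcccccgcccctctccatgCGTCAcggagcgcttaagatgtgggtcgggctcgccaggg
Nr4a2, chr2:57124004-57124253, minus strand: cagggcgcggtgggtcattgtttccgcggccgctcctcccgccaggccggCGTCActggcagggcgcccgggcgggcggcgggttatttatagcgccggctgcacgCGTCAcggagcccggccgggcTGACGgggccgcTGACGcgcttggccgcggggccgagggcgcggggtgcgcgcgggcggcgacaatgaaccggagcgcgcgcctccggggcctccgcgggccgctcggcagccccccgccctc
Nr4a3, chr4:48045055-48045152, plus strand: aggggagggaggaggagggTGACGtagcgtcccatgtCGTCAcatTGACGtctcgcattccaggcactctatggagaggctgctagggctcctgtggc
Egr2, chr10:67537619-67537868, plus strand: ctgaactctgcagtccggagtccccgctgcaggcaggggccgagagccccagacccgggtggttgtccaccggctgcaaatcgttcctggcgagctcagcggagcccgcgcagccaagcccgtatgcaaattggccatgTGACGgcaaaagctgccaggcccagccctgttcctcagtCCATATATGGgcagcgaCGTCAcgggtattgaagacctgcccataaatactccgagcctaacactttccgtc
Egr4, chr6:85513590-85513839, minus strand: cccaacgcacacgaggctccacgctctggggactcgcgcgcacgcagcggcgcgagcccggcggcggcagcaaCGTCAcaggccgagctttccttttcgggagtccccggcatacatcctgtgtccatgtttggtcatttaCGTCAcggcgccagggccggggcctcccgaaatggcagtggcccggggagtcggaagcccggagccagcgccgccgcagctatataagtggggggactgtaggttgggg
Npas4, chr19:4990126-4990155, minus strand: ttcgaCGTCAcgggaTGACGtcggaagtct

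The table holds estimated counts, with between 31745630 and 45142355 per mouse. Levels are given as CPM, counts scaled to library size with edgeR's TMM factors. All 10 genes had at least 65 estimated counts in every mouse (65 for Ier2 in mouse 3), so none was lost to the filter of 10 reads in total. None of them overlaps another annotated gene, and at most 0.523% of the 31-base words of a member (Egr3) also occur in transcripts of other genes. Mouse 3 stood apart in the PCA of the 11 mice, with the lowest PC1 score (-26.5) and the highest PC2 score (29.1), and it also had the highest box:zone ratio of the SIT at 10 min (2.62). Results that rest on mouse 3 are therefore given with and without it where both were computed. Group tests of genes outside the set are given for the 11 mice only. Neuronal markers were present in every library, with a summed level of 4865 to 6248 CPM over 8 genes, and so were all 5 basolateral and all 5 central amygdala markers.

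Per kilobase of annotated exon, Egr1 had the highest median level of the 10 genes over the 11 mice (31.9 CPM per kb), followed by Arc (20.5), Nr4a1 (13.9), Egr4 (8.35), Nr4a2 (6.14), Nr4a3 (5.76), Npas4 (5.23), Egr3 (3.35), Ier2 (2.85) and Egr2 (1.92). The ranges of all 9 neighbouring pairs in this order overlapped across mice. Within mice, Nr4a1 was above Egr4 in 11 of 11, while Nr4a2 was above Nr4a3 in 6 of 11, so the order of that pair was not settled.

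These genes varied more between mice than most. The SD of log2 CPM over the 11 mice was 1.32 for Nr4a2, 0.89 for Arc, 0.83 for Egr2 and 0.68 for Egr4, whereas the median over the 15891 genes with a mean of at least 1 CPM was 0.21. The smallest SDs among the 10 were those of Egr1 (0.34) and Egr3 (0.38). The SD of Egr1 still exceeded that of 80.2% of these genes, and that of Nr4a2 exceeded 99.2%. The highest mouse stood 17.8-fold above the lowest for Nr4a2 and 8.36-fold for Arc, but 2.36-fold for Egr1. Without mouse 3 the SDs were 1.24 for Nr4a2, 0.60 for Arc, 0.75 for Egr2, 0.49 for Egr4, 0.30 for Egr1 and 0.22 for Egr3, beside a median of 0.20 over all these genes. Egr3 then exceeded 57.5% of the genes, close to the middle, and Nr4a2 still 99.1%. The highest mouse was then 16.4-fold above the lowest for Nr4a2, 3.78-fold for Arc and 2.18-fold for Egr1.

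Egr1, the family member that is most often used as an activity marker, reached 94.3, 143 and 118 CPM in less anxious mice 3, 7 and 12. It was at 136, 156, 149 and 120.3 CPM in anxious mice 1, 4, 8 and 11, and at 152, 148, 102 and 222 CPM in more anxious mice 2, 6, 9 and 10. The groups overlapped, and the widest spread was inside the more anxious group, between mice 9 and 10.

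Egr2, which is also known for its part in myelination by Schwann cells, had the lowest level per kilobase. Its values were 2.25, 6.95 and 2.55 CPM in the less anxious mice, 4.40, 12.8, 8.42 and 6.52 CPM in the anxious mice and 8.27, 4.31, 3.40 and 11.2 CPM in the more anxious mice. Mice 4 and 10 were highest and mice 3 and 12 lowest, and all groups overlapped. Egr3, whose protein binds the same GC-rich sites as Egr1, spanned 7.20 to 19.7 CPM in the less anxious group, 12.5 to 15.6 CPM in the anxious group and 14.8 to 17.8 CPM in the more anxious group. Both extremes of Egr3 thus lay in the less anxious group, in mice 3 and 7.

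Egr4, a family member with expression largely in neurons, was the only one of the 10 genes in which every more anxious mouse lay above every less anxious mouse. It was measured at 5.06, 13.3 and 9.02 CPM in mice 3, 7 and 12, at 9.11, 19.7, 17.9 and 16.7 CPM in mice 1, 4, 8 and 11, and at 21.9, 19.5, 22.0 and 20.2 CPM in mice 2, 6, 9 and 10. The anxious group filled the gap and touched both others. The same separation was seen in 4.49% of the 26963 genes tested, and the groups were cut from the same data.

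Nr4a1 was at 19.1, 62.2 and 37.5 CPM in the less anxious mice, at 30.4, 63.1, 52.4 and 46.5 CPM in the anxious mice and at 58.3, 48.9, 36.0 and 74.6 CPM in the more anxious mice. Mouse 3 was lowest and mouse 10 highest, with full overlap of the groups.

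Nr4a2, which is also required for midbrain dopamine neurons, was at 7.002, 33.6 and 9.88 CPM in the less anxious mice. It was at 16.5, 83.2, 24.9 and 23.6 CPM in the anxious mice and at 124, 7.58, 35.0 and 34.4 CPM in the more anxious mice. Mice 2 and 4 stood far above the rest, and mouse 6 of the more anxious group was as low as mice 3 and 12 of the less anxious group. The same mice, 2 and 4, had the highest summed level of the 5 central amygdala markers (511 and 484 CPM, range of all mice 223 to 511), and mouse 4 had the highest summed level of the 5 pituitary markers (56.8 CPM, with 17.1 CPM in mouse 11 and at most 5.00 CPM in the others). Mice 2 and 4 also had the lowest summed levels of the striatal markers (129 and 124 CPM, up to 529 CPM in the others). Mouse 2 had the lowest sum of the microglia markers (115 CPM, range of all mice 115 to 153). The part of these markers in the Nr4a2 values was not tested.

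Nr4a3 ran from 17.3 to 43.1 CPM in the less anxious group, from 34.5 to 47.6 CPM in the anxious group and from 20.1 to 48.1 CPM in the more anxious group. It was the only gene of the set whose lowest value was not in mouse 3, since mouse 12 was lower. Npas4 was at 9.31, 23.6 and 22.1 CPM in the less anxious mice, at 27.0, 27.6, 20.7 and 21.6 CPM in the anxious mice and at 17.5, 17.3, 13.7 and 22.1 CPM in the more anxious mice. Mouse 3 was lowest, mice 9, 6 and 2 of the more anxious group came next, and mouse 10 of that group lay above anxious mice 8 and 11, so the groups overlapped.

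Arc was at 13.5, 113 and 47.1 CPM in the less anxious mice, at 42.9, 93.5, 72.3 and 62.8 CPM in the anxious mice and at 75.2, 55.8, 29.8 and 102.6 CPM in the more anxious mice. The less anxious group alone held both its lowest and its highest value. Ier2 had the smallest counts and ran from 1.81 to 4.39 CPM in the less anxious group, from 2.87 to 5.25 CPM in the anxious group and from 3.30 to 6.64 CPM in the more anxious group.

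**Figure D1:**
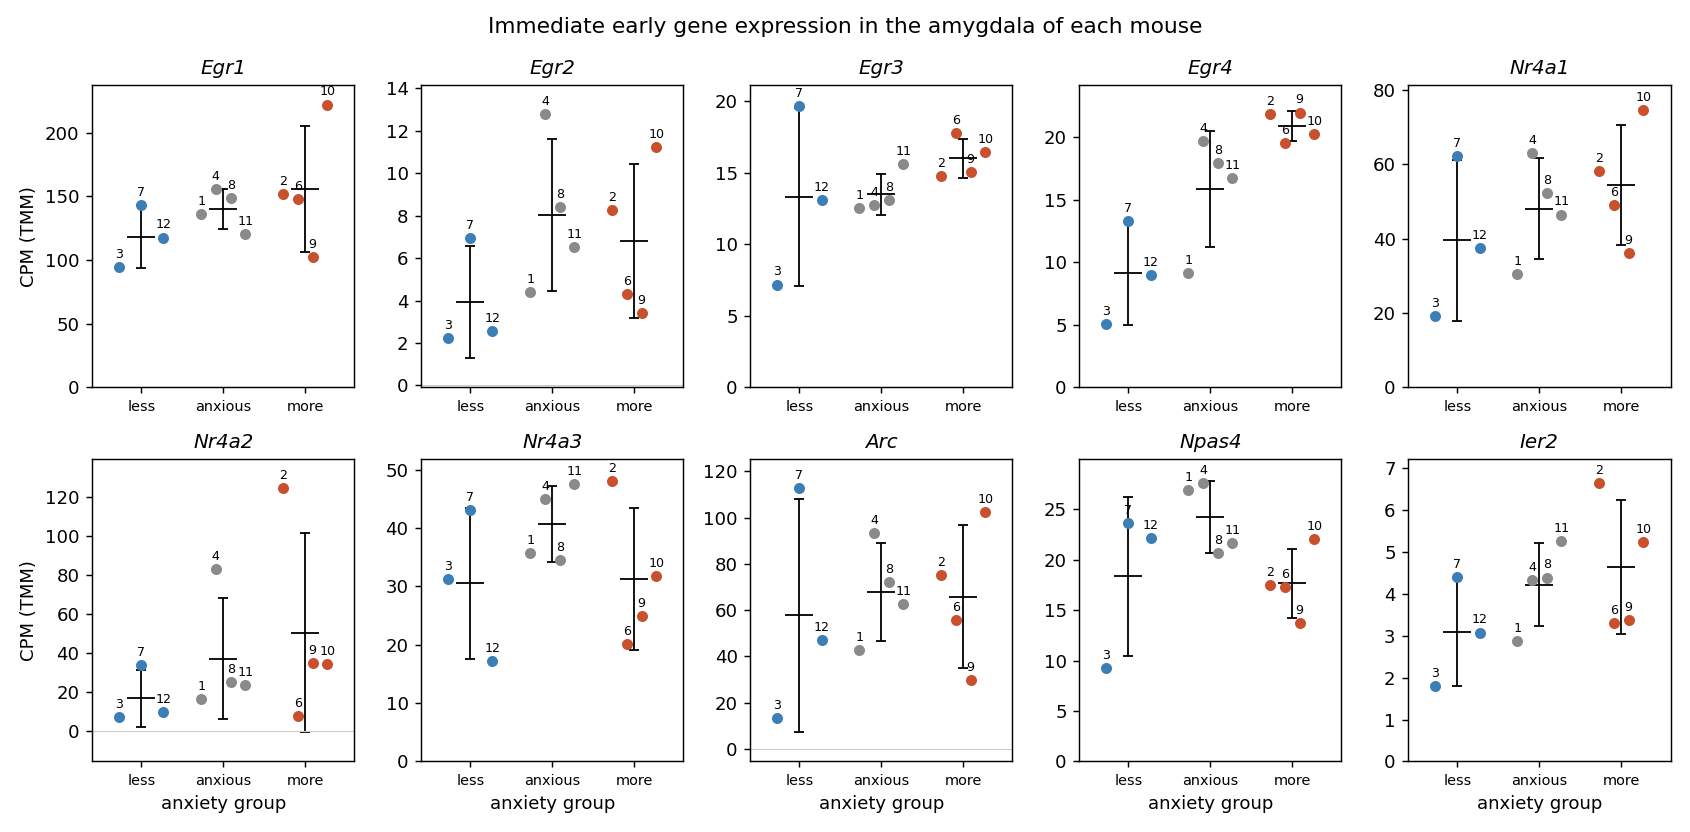
Expression of each gene (vertical axis, CPM after TMM scaling) in each of 11 mice by anxiety group (horizontal axis). Points carry the mouse number, horizontal bars are group means and error bars are SD. Egr4 alone separates the less and more anxious mice, mouse 3 is lowest in 9 of 10 genes, and mice 2 and 4 stand out for Nr4a2.

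To ask how the genes differ between the groups, edgeR's quasi-likelihood test was run over 26963 genes with PC1 as covariate, and both group coefficients were tested together. Of all genes tested, 0.00742% (2 genes) had an adjusted p under 0.05 and 6.35% had an unadjusted p under 0.05. Among the 10 immediate early genes, 0 passed after adjustment and 1, Egr4, had an unadjusted p under 0.05 (adjusted p = 0.476). The log2 fold change of Egr4 was 1.18 (SE 0.26) from less to more anxious mice, or 2.27-fold, with 0.73 (SE 0.26) from less anxious to anxious and 0.45 (SE 0.23) from anxious to more anxious. By unadjusted p it ranked 142 of 26963. DESeq2's likelihood ratio test, which the study used, called Egr4 with the same terms (adjusted p = 0.00583) among 187 genes, or 0.542% of the 34511 genes with a read. Egr4 was on the list that the study chose on these samples, which is therefore no independent evidence of its direction.

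For the other 9 genes the adjusted p of the group test was at least 0.906. Nr4a2 had the largest log2 fold change from less to more anxious mice, 1.69, but also the largest error (SE 1.02). The log2 fold changes were 0.82 (SE 0.51) for Egr2, 0.57 (SE 0.31) for Ier2, 0.46 (SE 0.34) for Nr4a1 and 0.36 (SE 0.21) for Egr1. Those of Arc (0.32, SE 0.57), Egr3 (0.25, SE 0.21), Nr4a3 (0.03, SE 0.37) and Npas4 (-0.08, SE 0.27) were the smallest. In 9 of the 10 genes the estimate was positive, with a median of 0.41, whereas 50.5% of all genes tested were positive, with a median of 0.00. These 10 estimates are not separate observations, since the genes vary together across mice. The median ran from 0.17 to 0.81 when each mouse was left out. It was lowest without mouse 10, where 8 of the 10 estimates were positive and those of Egr1 (0.06), Nr4a1 (0.16), Egr2 (0.33) and Arc (-0.18) were well below their values over all mice. It was highest without mouse 7, where all 10 were positive. Without mouse 2 that of Nr4a2 was 0.86 in place of 1.69. Without mouse 3, 7 of the 10 estimates were positive and the median was 0.25. Arc was then at -0.14 and Egr3 at -0.01, while Egr4 was at 0.96 (SE 0.25, adjusted p = 0.529), still with an unadjusted p under 0.05. Npas4 was at -0.37 (SE 0.18, adjusted p = 0.610) and also had an unadjusted p under 0.05 in that fit.

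Markers of some other cell types or tissues stood apart between the less and more anxious mice in the same libraries, although 0 of them were called across the groups. The summed level of the 5 astrocyte markers was 1063 to 1298 CPM in the less anxious and 795 to 1011 CPM in the more anxious mice, that of the 5 endothelial markers 98.4 to 142 and 69.4 to 89.9 CPM, and that of the 5 choroid plexus markers 11.09 to 15.9 and 4.73 to 11.03 CPM, and in each of these lists 1 of 5 genes had an unadjusted p under 0.05. The 5 pituitary markers summed to 2.17 to 3.70 CPM in the less anxious, 2.02 to 56.8 CPM in the anxious and 1.20 to 1.70 CPM in the more anxious mice, and all 5 had an unadjusted p under 0.05. Their highest sums were in anxious mice 4 (56.8 CPM) and 11 (17.1 CPM). These p-values test all 3 groups together, for which the share of all genes was 6.35%. In these 4 lists the sums of the less and more anxious mice did not overlap, but those of the choroid plexus markers nearly met (11.09 and 11.03 CPM). They overlapped for oligodendrocytes (2225 to 2898 and 1780 to 2436 CPM), microglia (129 to 153 and 115 to 134 CPM) and striatum (181 to 529 and 129 to 358 CPM). The basolateral (996 to 1467 and 1166 to 1835 CPM) and central amygdala sums (266 to 332 and 223 to 511 CPM) overlapped too. The groups were cut from the same data, and the share of all genes that separate in the lower direction was not computed. The neuronal markers were at 4865 to 5179 CPM and 5149 to 6248 CPM, with an unadjusted p under 0.05 in 2 of 8. Otx2 of the choroid plexus list and Prl, Gh and Cga of the pituitary list were at 0 in at least 1 mouse. Their part in the levels of Egr4 and the other immediate early genes was not tested.

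**Figure D2:**
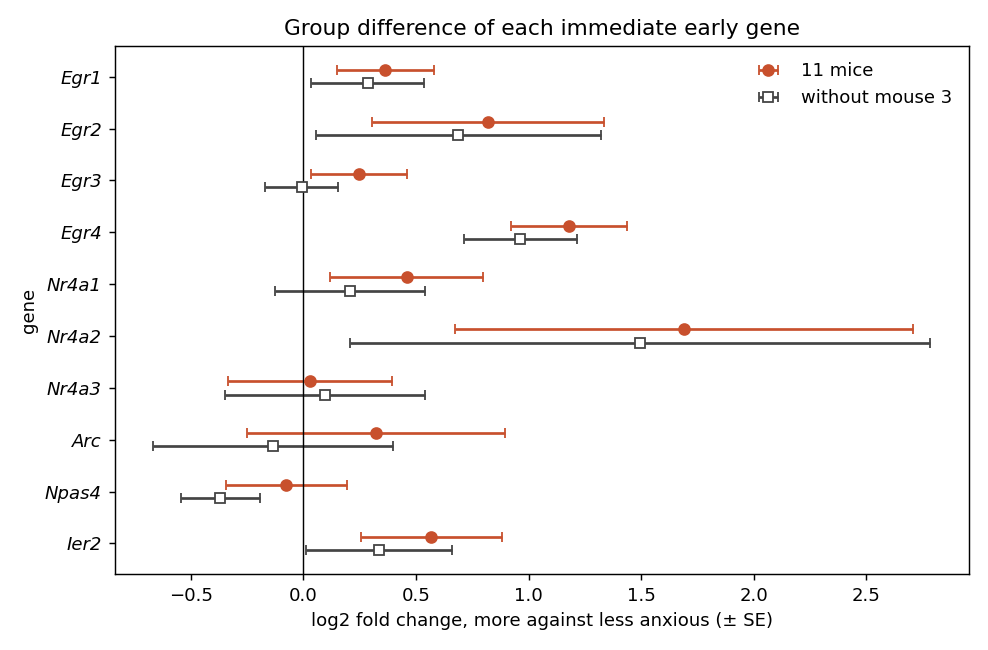
Log2 fold change of each gene from less to more anxious mice (horizontal axis) with its SE, from edgeR with PC1 as covariate, for 11 mice (filled circles) and without mouse 3 (open squares). Egr4 lies at 1.18 and 0.96, Nr4a2 has the widest error bars, and Arc and Egr3 cross 0 when mouse 3 is left out.

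The behavior measures were fitted without the groups. They were the shares of time and of distance spent in the light (LD), the share of time on open arms and the total entries (EPM), all shares in percent, and the ratio of time in the box beside the stranger mouse to time in the zone at 3, 5 and 10 min (SIT). Lower LD and EPM values are read as more anxiety. Mouse 6 of the more anxious group had the highest share of time (46.6%) and distance (41.9%) in the light and the highest open-arm time (29.2%). The group label, taken from PC2, is thus not a behavior score of the single mouse. Each measure was fitted as a standardized number in its own edgeR model, so a slope is a log2 change per SD of the measure. Over the 70 combinations of 10 genes and 7 measures, 0 passed after adjustment over all genes (the smallest adjusted p was 0.453), and 0.00796% of all gene tests of the 7 measures did. An unadjusted p under 0.05 was found in 12 of the 70 (17.1%), compared with 6.35% of all genes over the 7 measures. All 12 slopes were negative. The 70 combinations are not separate observations, since the genes vary together and the measures of one test overlap. Of the 70 slopes, 64 were negative, and the share of negative slopes among all genes ran from 48.7% to 53.3% by measure. Without mouse 3, 46 of the 70 were negative, with 5 of 10 for entries and for the 10-min ratio. An unadjusted p under 0.05 was then left in 5 of the 70 (7.14%), near the 5.3% of all gene tests in the same fits.

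The relation of Nr4a2 to the percentage of distance in the light had the smallest p of the 70. From the mouse with the smallest share of its distance in the light to the mouse with the largest, mice 2 (16.6%), 9 (19.3%), 8 (25.0%) and 10 (26.1%) had 124, 35.0, 24.9 and 34.4 CPM. Mice 4 (26.4%), 7 (27.6%) and 11 (29.2%) followed with 83.2, 33.6 and 23.6 CPM, and mice 12 (34.5%), 1 (37.3%), 3 (37.8%) and 6 (41.9%) had 9.88, 16.5, 7.002 and 7.58 CPM. The 4 mice with the largest share of their distance in the light were thus the 4 lowest in Nr4a2, and they came from all 3 groups.

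The slope of Nr4a2 on this measure was -1.19 per SD (SE 0.23), with an unadjusted p of 0.000409 and an adjusted p of 0.453 over all genes by edgeR. DESeq2 called it (adjusted p = 0.00140), as it did 0.0637% of the genes with a read. The slope was -1.10 without mouse 3 and between -0.98 and -1.28 when any single mouse was left out. Without mice 2 and 4, a check chosen after their values were seen, it was -0.82 (adjusted p = 0.922). Nr4a2 also had negative slopes on the percentage of time in the light (-1.05, SE 0.33), total entries (-0.92, SE 0.30) and the 10-min ratio (-0.86, SE 0.37), each with an unadjusted p under 0.05 and with adjusted p-values of 0.9997, 0.606 and 0.608. Those on entries and on the 10-min ratio depended on mice 2 and 4, without which they were -0.35 and -0.16 and no longer had an unadjusted p under 0.05. The slope on the 10-min ratio also depended on mouse 3, without which it was -0.51 and lost that p.

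The shares of all genes with an unadjusted p under 0.05 were 3.55% for time and 5.8% for distance in the light, and 2 of the 10 genes, Nr4a2 and Ier2, reached it for both. The slope of Ier2 was -0.35 (SE 0.11, adjusted p = 0.805) on distance and -0.29 (SE 0.12, adjusted p = 0.9997) on time. Without mouse 3 these were -0.27, with an unadjusted p still under 0.05, and -0.22, with one above it. For open-arm time the share was 5.84% of all genes and 0 of the 10. For total entries it was 6.97%, and Nr4a2 and Nr4a3 (-0.30, SE 0.12, adjusted p = 0.686) were the 2 genes that reached it. Egr4 did not reach it for any measure, and its slopes ran from -0.33 (distance in the light) to 0.06 (3-min ratio).

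In the SIT, the shares of all genes were 7.65% at 3 min, where mouse 4 has no value, 6.56% at 5 min and 8.05% at 10 min. Npas4 was the gene that reached it at all 3 times, with slopes of -0.26 (SE 0.11), -0.27 (SE 0.11) and -0.28 (SE 0.11) and adjusted p-values of 0.590, 0.737 and 0.552. Egr3 had slopes of -0.22 (SE 0.09, adjusted p = 0.729) at 5 min and -0.25 (SE 0.09, adjusted p = 0.533) at 10 min. These relations rested on mouse 3, which had the lowest Npas4 and Egr3, the highest ratio at 5 min (2.12) and 10 min (2.62) and a ratio of 1.70 at 3 min, below the 1.84 of mouse 9. Without it the slopes of Npas4 were -0.14, -0.05 and -0.02 and those of Egr3 -0.02 and -0.00, none with an unadjusted p under 0.05. Over all measures, 5 combinations kept an unadjusted p under 0.05 without mouse 3, and they were Nr4a2 on time, distance and entries, Nr4a3 on entries and Ier2 on distance. Without mice 2 and 4, of these only Nr4a2 on time and distance kept it. Nr4a3 on entries was then at -0.24 and Ier2 on distance at -0.27. With mouse 5 included, Ier2 on distance was at -0.25 and also lost it.

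**Figure D3:**
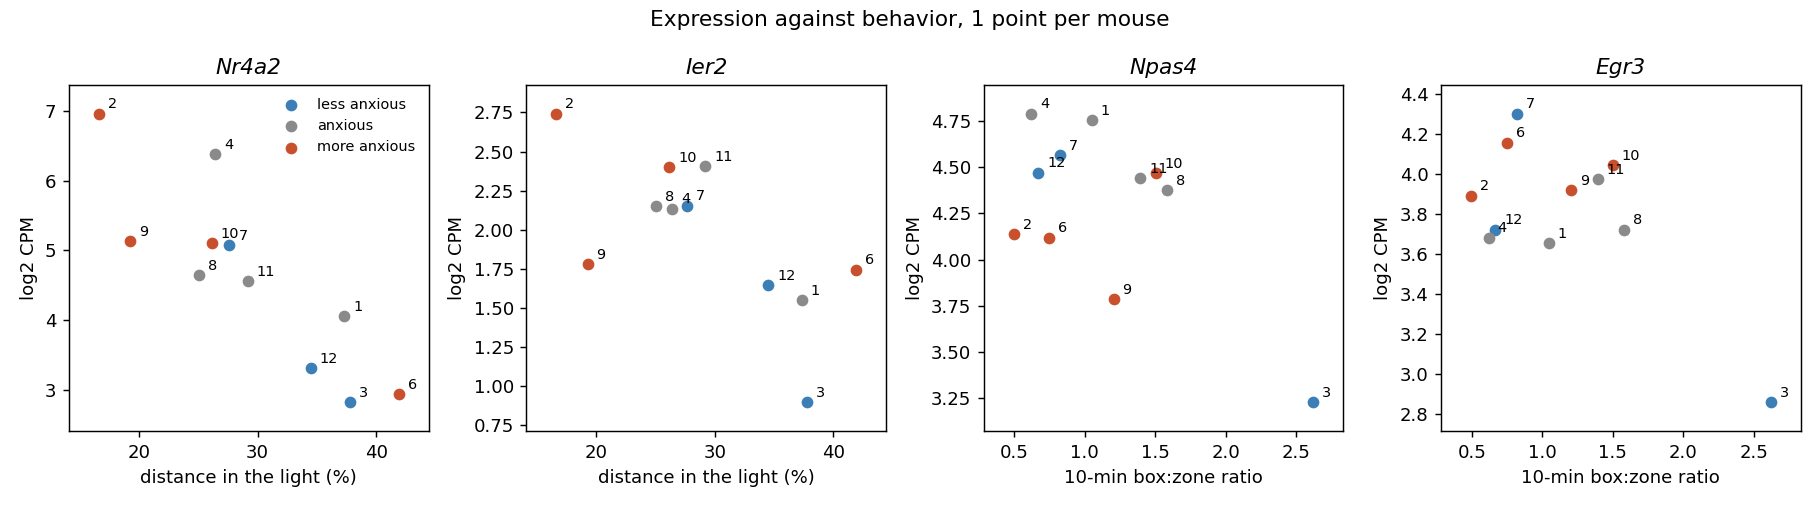
Log2 CPM (vertical axes) of Nr4a2 and Ier2 against the percentage of distance in the light, and of Npas4 and Egr3 against the 10-min box:zone ratio, with 1 numbered point per mouse colored by anxiety group. The 4 mice with 34.5% to 41.9% of their distance in the light lie lowest for Nr4a2, while the slopes of Npas4 and Egr3 rest on mouse 3 at a ratio of 2.62.

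The 10 genes varied together across mice. Over their 45 pairs, the median Pearson r of log2 CPM was 0.65, the lowest 0.05 (Egr3 and Nr4a3) and the highest 0.96 (Nr4a1 and Arc), and 34 pairs were above 0.5. The median over all pairs of the 15891 genes with a mean of at least 1 CPM was 0.00. The median was no higher inside a family, 0.62 for the 6 EGR pairs and 0.65 for the 3 NR4A pairs, than for the 36 other pairs, 0.66. Mouse 3 carried part of this. Without it the median of the 45 pairs was 0.43, 20 pairs were above 0.5 and 41 above 0, and the median over all genes remained 0.00. The EGR pairs then ran from 0.06 (Egr2 and Egr3) to 0.74 (Egr1 and Egr2). The NR4A pairs were at 0.43, 0.51 and 0.74, and the other pairs ran from -0.55 to 0.91. Medians by family were not computed without mouse 3, so the likeness of families and other pairs is given for the 11 mice only. When group means were subtracted over the 11 mice, the median of the 45 pairs was 0.66. That value still includes mouse 3, which lay far from mouse 7 inside the less anxious group (mean z-score of the 10 genes -1.83 and 0.57). Whether the pairs vary together inside the groups without mouse 3 was not tested.

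Nr4a1 and Arc gave r = 0.957 (permutation p = 5e-05) and Spearman rho = 0.955 (permutation p = 3e-05) over the 11 mice, two-sided, and r was 0.932 without the 2 mice farthest from the median of Nr4a1. Egr1, Egr2, Nr4a1 and Arc, singled out after the values were seen, kept r between 0.74 and 0.91 in their 6 pairs without mouse 3. Egr1 and Egr2 had r = 0.809 (permutation p = 0.00171) and rho = 0.909 (permutation p = 0.000300), and r was 0.720 without the 2 extreme mice. The pair of receptors Nr4a2 and Nr4a3 had r = 0.680 (permutation p = 0.0212) and rho = 0.573 (permutation p = 0.0705), with r = 0.703 without the 2 extreme mice. The p-values of these pairs, out of 45 computed, were not adjusted.

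Some pairs were loose. Over the 11 mice, Nr4a3 had the lowest median r with the other 9 genes (0.33), followed by Egr3 and Npas4 (0.54 each), whereas Nr4a1 had the highest (0.80), followed by Arc (0.79) and Ier2 (0.78). The place of Nr4a3 in this order rested on mouse 3, whereas Egr3 and Npas4 were looser still without that mouse. Medians by gene were not computed without mouse 3. Without it, r rose in every pair of Nr4a3 but that with Egr3, to 0.74 with Egr2 and 0.70 with Ier2. It fell in every pair of Egr3 and in every pair of Npas4 but that with Nr4a3, to -0.31 between Egr3 and Npas4. The high end changed too, since r also fell in every pair of Nr4a1 and of Arc but those with Nr4a3. It was then 0.15 between Nr4a1 and Npas4 and 0.22 between Arc and Egr4. Egr4 and Npas4 had r = 0.332 (permutation p = 0.311) and rho = -0.173 (permutation p = 0.616). Without the 2 mice farthest from the median of Egr4 (mice 3 and 12) r was -0.619. It was already -0.546 without mouse 3 alone, so the positive value rests on mouse 3.

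**Figure D4:**
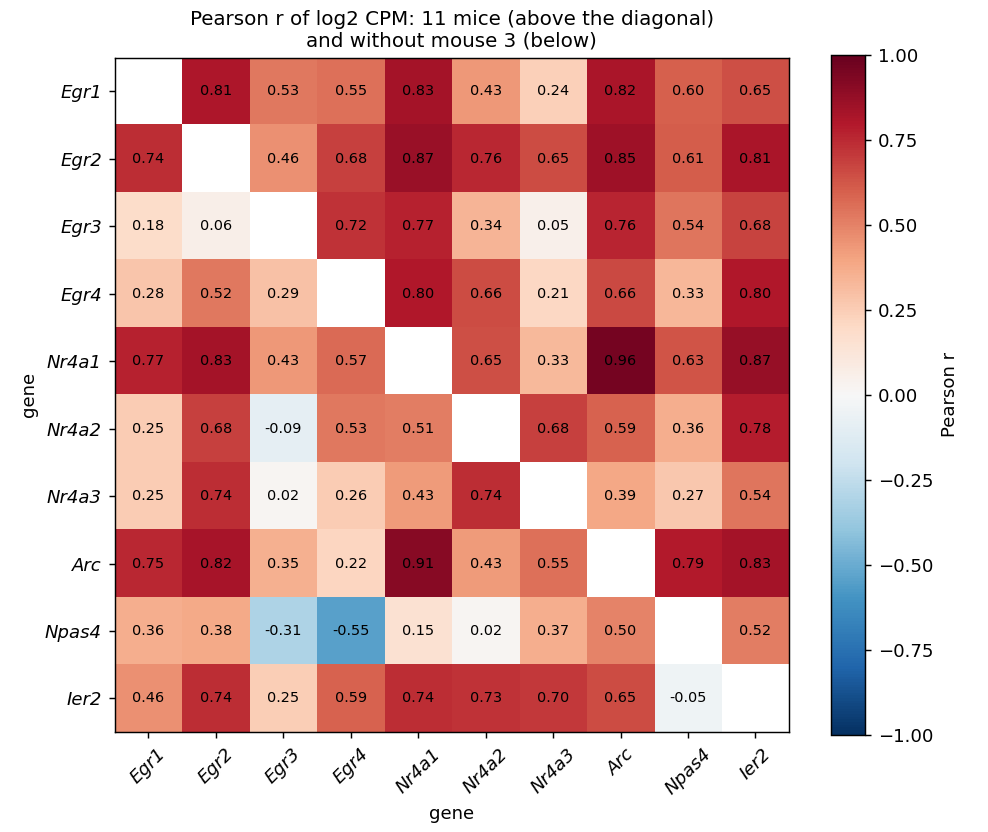
Pearson r of log2 CPM for each of the 45 pairs, over 11 mice above the diagonal and over 10 mice without mouse 3 below it. Egr1, Egr2, Nr4a1 and Arc keep r of at least 0.74 in both triangles, and Npas4 with Egr4 turns from 0.33 to -0.55.

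By mouse, the mean z-score of the 10 genes was lowest in mouse 3 (-1.83), which held the lowest value of 9 of the 10 genes, and next lowest in mouse 12 (-0.71), both of the less anxious group. It was highest in mice 10 (0.84), 4 (0.76) and 2 (0.74). Mouse 7, the third less anxious mouse, was at 0.57 and had the highest Arc and Egr3 of all, so the less anxious group held both low and high mice. Within the more anxious group, mice 6 (-0.19) and 9 (-0.44) were below 0. Mouse 3 had the lowest summed level of basolateral amygdala markers (996 CPM, up to 1835 CPM in the others), while its neuronal markers (5179 CPM) were within the range of the other mice. The part of tissue composition in the low values of mouse 3 was not tested, and in bulk tissue fewer active cells and less mRNA per cell cannot be told apart.

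**Figure D5:**
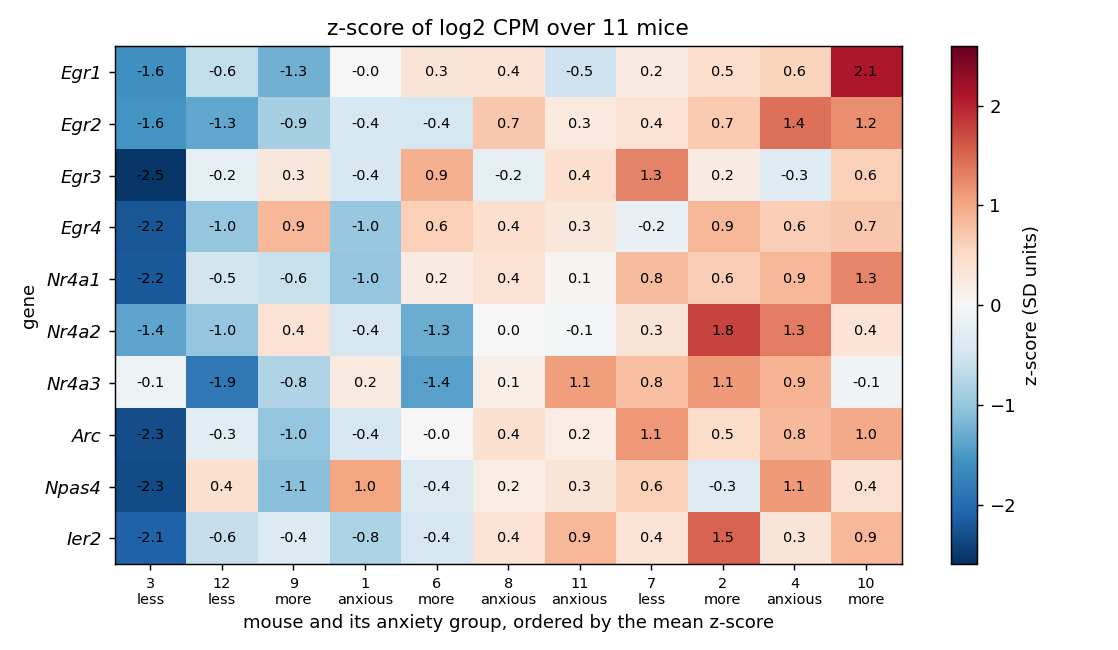
z-score of log2 CPM (color, in SD over 11 mice) for each gene (rows) and mouse (columns, with its anxiety group), with mice ordered by their mean z-score. Mouse 3 is blue in nearly every row with a mean of -1.83, and the mice of each group are spread along the order.

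The genes whose pattern was most like the mean z-score of the 10 were Dusp1 (r = 0.976 over 11 mice), a phosphatase that inactivates MAP kinases, Fosb (0.973), an AP-1 subunit, Trib1 (0.947), a pseudokinase, Car4 (0.940), a carbonic anhydrase, and 1700016P03Rik (0.936). For single genes, the nearest were Dusp1 for Nr4a1 (0.970), Dusp5 for Ier2 (0.937), Gdf1 for Egr4 (0.959), Nfib for Nr4a3 (0.937), Map3k6 for Nr4a2 (0.901), Fxyd1 for Egr1 (0.930), Srfbp1 for Egr2 (0.948), Ep400 for Egr3 (0.952), Gm27353 for Arc (0.954) and Abhd11os for Npas4 (0.898). With 15891 genes searched, each of these is the largest of many values and is given as a description. Over the 10 mice without mouse 3, with the mean z-score recomputed, Dusp1 (0.954) and Fosb (0.922) were still the nearest to the mean. Trib1 was at 0.876 (rank 12 by r), Car4 at 0.891 (rank 7) and 1700016P03Rik at 0.911 (rank 4). For single genes r was then between 0.88 and 0.94, except for Abhd11os with Npas4 (0.758), which then ranked 133 by r. Gdf1 with Egr4 then ranked 14 and Gm27353 with Arc 11. Fxyd1 with Egr1 was still the nearest, and the other single genes ranked 2 to 4.

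Other genes of rapid activity-regulated transcription went with the set. Of 30 such genes, 28 had a mean of at least 1 CPM, and their median r with the mean z-score of the 10 was 0.81, with 22 above 0.5, whereas the median of all genes was 0.01 and 12.3% of all genes were above 0.5. Without mouse 3 the median of the 28 was 0.74 with 20 above 0.5, and that of all genes 0.03 with 7.99% above 0.5. Over all 11 mice, Fos (0.892), Junb (0.930), Gadd45b (0.893) and Ccn1 (0.893) were among the high ones, and Rheb (-0.539), Homer1 (-0.193) and Ier3 (-0.091) were the 3 below 0. Without mouse 3 Rheb was at 0.02 and Homer1 at -0.00. In the group test over the 11 mice, 0 of the 30 passed after adjustment. An unadjusted p under 0.05 was found in 4 with higher levels in more anxious mice and in 0 with lower levels. The share of all genes was 6.35% in both directions together, and many genes of this list vary together. The 4 were Jund (log2 fold change 1.18, SE 0.17, adjusted p = 0.0946), Junb (1.10, SE 0.31), Gadd45g (0.61, SE 0.21) and Jun (0.58, SE 0.19), of which the last 3 had adjusted p-values of 0.692, 0.706 and 0.732.

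Genes that respond later were less like the set. Of 10 delayed activity-regulated genes, 9 had a mean of at least 1 CPM, their median r with the mean z-score was 0.12, and 1, Bdnf (0.539), was above 0.5. Without mouse 3 the median was -0.03 and 0 were above 0.5, with Bdnf at 0.452. Across the groups 0 of this list were called and 1 of 10 had an unadjusted p under 0.05, beside 6.35% of all genes. This was Vgf, a neuropeptide precursor (log2 fold change 0.46, SE 0.12, adjusted p = 0.546). Bdnf (0.25, SE 0.12, adjusted p = 0.842), Pcsk1 (-0.21, SE 0.11, adjusted p = 0.854) and Rgs2 (-0.12, SE 0.11, adjusted p = 0.902) followed.

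Upstream factors and partners had a median r of 0.17 over 18 genes. The 3 above 0.5 were Nab2 (0.723), a co-repressor that binds EGR proteins, Srf (0.653), the factor that binds the CArG box printed for Egr2, and Crtc2 (0.620), a coactivator of CREB. Nab1, the other EGR co-repressor, was at 0.180 and Creb1 itself at 0.142. Without mouse 3 the median was 0.01, Nab2 was at 0.566, Srf at 0.478, Crtc2 at 0.351 and Creb1 at 0.586. Across the groups 0 of the 18 were called. An unadjusted p under 0.05 was found in 3 with higher and 1 with lower levels, beside 6.35% of all genes in both directions together. The unadjusted p was under 0.05 for Arnt (log2 fold change 0.33, SE 0.09), Mapk3 (0.39, SE 0.13) and Nab1 (0.38, SE 0.14), which were higher in more anxious mice, and for Rxrg (-0.47, SE 0.17), a nuclear receptor that can pair with NR4A proteins, which was lower. Their adjusted p-values were 0.611, 0.704, 0.757 and 0.764.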

How the data were processed

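Amygdala mRNA of 12 mice was sequenced with single-end reads. The authors quantified transcripts from trimmed reads with Salmon and collapsed them to genes, and used STAR alignments to mm10 for checks of quality. The deposited values are these estimated counts (expected counts), as whole numbers without normalization. Tool versions and the annotation are not given in the sources used here. Gene names came from GENCODE M21 (GRCm38), which had an entry for 47310 of 47729 genes (99.1%).

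Groups and behavior measures came from the sample labels. The members, the gene lists and the rule for named genes (all 10 members, slopes with an unadjusted p under 0.05, the 5 genes nearest to the mean of the set and the nearest to each member, and up to 4 genes per list) were chosen with earlier results of these data known. Analyses used R 4.3.3, edgeR 4.0.16 (TMM, robust quasi-likelihood test, at least 10 reads in total, Benjamini-Hochberg over all genes tested, threshold 0.05), DESeq2 1.42.0 as an alternative, and Python. PC1 came from DESeq2's variance-stabilizing transform of the 11 mice. Log2 CPM used a prior count of 2, and pair correlations 100000 permutations. The fits were tested on simulated counts with the same dispersion for every gene and a random PC1, a setting that does not cover genes as variable between mice as these. Alternatives were size factors, count filter, test, covariate, robust option, coding of groups and measures, mouse 5 included and each mouse left out. The spread between mice and the likeness to the mean z-score without mouse 3 were added after seeing the data. Depth was at least 31745630 counts per mouse, and floors or errors from counting do not cover variation between animals. P-values measure the spread between single mice.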

Additional observations from a re-analysis of the deposited data

Results flagged for a closer look

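In the anxious group, the Nr4a2 level of mouse 4 (83.2 CPM) stood apart from the other 3 mice (16.5 to 24.9 CPM), with a gap to the nearest mouse of 0.874 of the range of the group, above Dixon's 95% critical value for 4 samples. This was 1 of 20 groups of 4 mice examined (10 genes, anxious and more anxious groups), and about 1 in 20 is flagged by chance.

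Mouse 5, which the labels place in no group and the authors removed as an outlier, carried signal for all 10 genes. It enters no main comparison and was added only in alternatives of the behavior fits and pair correlations. Its levels were 137 CPM for Egr1, 10.9 CPM for Egr3, 10.9 CPM for Egr4, 49.5 CPM for Nr4a1, 29.0 CPM for Nr4a2, 46.4 CPM for Nr4a3, 78.0 CPM for Arc, 20.7 CPM for Npas4 and 2.31 CPM for Ier2, all within the range of the 11 other mice. Egr2 was at 13.4 CPM, above the highest of the others (12.8 CPM).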

How the results depend on the processing

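The number of the 10 genes called across the groups was 0 under every alternative run but DESeq2's likelihood ratio test, which called 1, and leaving out any mouse gave 0 to 0. The number with an unadjusted p under 0.05 ranged from 1 to 2 over the fits that left out 1 mouse, with 2 without mouse 3, mouse 6 or mouse 9. Of the 70 combinations with behavior, DESeq2 called 1 and edgeR 0 to 0 when each mouse was left out. The combinations with an unadjusted p under 0.05 ranged from 5 (without mouse 3) to 22 (without mouse 10) over those fits and were 7 without mice 2 and 4, an alternative chosen after seeing the data. The median pairwise r ranged from 0.43 (without mouse 3) to 0.69 when each mouse was left out, and the other alternatives gave 0.53 (Spearman rho) to 0.66. The cause was not tested.

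For single genes, 427 of 439 alternatives kept the direction and the side of the threshold. Egr4 passed under DESeq2 (adjusted p = 0.00583), and the range of its adjusted p over all alternatives was 0.00583 to 0.999, the last without mouse 9. The slope of Nr4a2 on distance in the light passed under DESeq2 (adjusted p = 0.00140, range over its alternatives 0.00140 to 0.973). Estimates near 0 changed sign. When each mouse was left out, Egr3 ranged from -0.0087 to 0.583, Arc from -0.177 to 0.878, Nr4a3 from -0.248 to 0.561 and Npas4 from -0.369 to 0.128. Egr3 went to -0.0087 and Arc to -0.14 without mouse 3, and Arc to -0.18 without mouse 10. Nr4a3 went to -0.022 with the group order as a number, -0.24 without mouse 2, -0.25 without mouse 12 and -0.24 without mice 2 and 4. Npas4 went to 0.09 without mouse 7, 0.01 without mouse 9 and 0.13 without mouse 12. No paired analysis was possible because the replicate numbers only name mice in accession order.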
